A study of Homo sapiens with 4 samples.

Results

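The distal part of the long arm of chromosome 8 carried 1160 TEAD4 peaks of the 51017 called in 2 gastric cancer cell lines. They were chosen by position alone, as peaks whose midpoint lay from 95000000 to 146364022 on chromosome 8 of hg19, with midpoints from 127900000 to 129300000 (the stretch around the MYC oncogene) left out. MKN28 contributed 859 of its 39477 peaks (2.18%) and SNU216 contributed 301 of its 11540 peaks (2.61%). The region was picked with earlier results of these data in view, among them wide peaks over 8q24 and a larger SNU216 share of peaks on chromosome 8. Counts, scores and widths below are therefore descriptions and carry no test.

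The peaks come from chromatin immunoprecipitation and sequencing (ChIP-seq) with an Abnova antibody against TEAD4 in MKN28 and SNU216, both labelled as gastric cancer cells, with no treatment named in the labels. The labels give 1 antibody library and 1 input library per line; the inputs were not analysed here. MKN28 is listed in registers of misidentified cell lines as a derivative of another gastric cancer line. Without replicates, differences between MKN28 and SNU216 could not be checked against any spread, and the 95% intervals below cover counting error only, treating neighbouring peaks as independent. Sequencing depth is unknown because the lists hold a position and a score per peak and no read counts.

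TEAD4 is 1 of the TEAD proteins, transcription factors that bind DNA and need a partner to activate genes. It recruits the co-activators YAP and TAZ, which the kinases of the Hippo pathway keep out of the nucleus, and much of its binding in epithelial cells is known to fall on distal enhancers. The bands of the distal long arm hold genes tied to this pathway and to epithelial cells. Among them are STK3 in 8q22.2, which encodes the Hippo kinase MST2, and GRHL2 in 8q22.3, a factor of epithelial identity. Further out lie TRPS1 in 8q23.3, a transcriptional repressor, PTK2 in 8q24.3, which encodes focal adhesion kinase, and SCRIB in 8q24.3, a polarity protein upstream of the Hippo kinases. These genes are background on the bands. No gene annotation of hg19 was used, and no peak was assigned to a gene.

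TEAD4 peaks were denser in distal 8q than on chromosome 8 below the lower limit of the region in both lines. MKN28 had 17.2 peaks per Mb and SNU216 had 6.02 peaks per Mb over the 49.96 Mb of the region. From the start of the chromosome to the lower limit, the densities were 9.32 per Mb in MKN28 and 3.17 per Mb in SNU216. That stretch, which does not include the MYC window, is called the rest of chromosome 8 below. The whole lists averaged 12.8 and 3.73 peaks per Mb in MKN28 and SNU216. These averages use the full length of all chromosomes, 3095.68 Mb with centromeres and chromosome Y. Leaving out stretches that cannot hold peaks would raise them. Distal 8q thus lay above the average of its own list in both lines, while the rest of chromosome 8 lay below it. Peaks covered 1.24% of the region in MKN28 and 0.310% in SNU216, against 0.721% and 0.167% over the genome for MKN28 and SNU216.

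There were 2.85 times as many MKN28 as SNU216 peaks in distal 8q. SNU216 peaks made up 25.9% of the peaks of both lines there (95% exact interval 23.4 to 28.6), against 25.4% (22.9 to 28) on the rest of chromosome 8 and 22.5% (22.2 to 22.9) among all peaks outside distal 8q. Both parts of chromosome 8 had nearly the same SNU216 share, and both were somewhat higher than the share outside distal 8q. The MYC window that was left out held 64 MKN28 and 34 SNU216 peaks in 1.4 Mb.

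**Figure D1:**
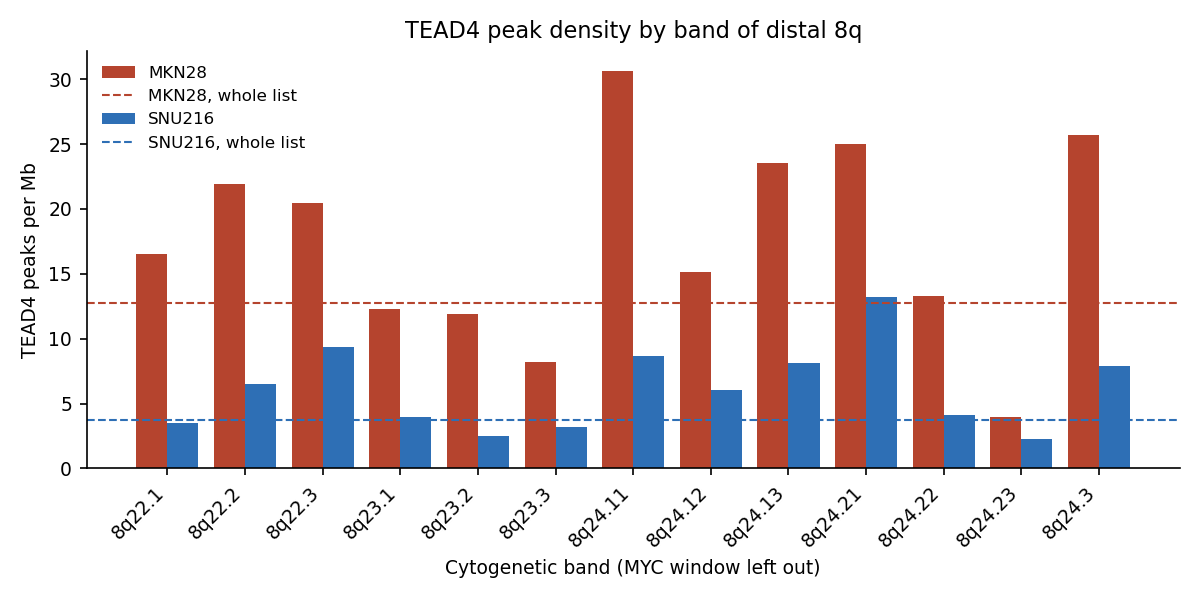
TEAD4 peaks per Mb (y axis) in each cytogenetic band of distal 8q (x axis), with MKN28 as the left bar and SNU216 as the right bar of each pair, and dashed lines at the average of each whole list. MKN28 was highest in 8q24.11 at 30.7 per Mb, SNU216 was highest in 8q24.21 at 13.2 per Mb, and 8q24.23 was lowest in both lines at 4.0 and 2.29 per Mb in MKN28 and SNU216.

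The density was uneven along the arm, and each line exceeded the average of its list in 9 of the 13 bands. MKN28 had most peaks per Mb in 8q24.11 (30.7), 8q24.3 (25.7), 8q24.21 (25) and 8q24.13 (23.5). SNU216 had most in 8q24.21 (13.2), 8q22.3 (9.35), 8q24.11 (8.67) and 8q24.13 (8.13). Below the average of its list in both lines were 8q23.2, 8q23.3 and 8q24.23. Band 8q23.1 lay near it in both, just below in MKN28 (12.3 per Mb) and just above in SNU216 (3.95 per Mb). Band 8q24.22 lay just above it, at 13.3 and 4.08 per Mb in MKN28 and SNU216. Bands this near could change side if centromeres were left out of the genome length, so the count of 9 depends on that choice. In 8q23 as a whole MKN28 had 10.3 peaks per Mb and SNU216 had 3.39, against 19.4 and 6.61 in 8q22 and 19.2 and 6.90 in 8q24 for MKN28 and SNU216. The order of the bands was not the same in the lines, since 8q22.1 was above the list average in MKN28 (16.5 per Mb) and below it in SNU216 (3.50 per Mb).

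The ratio of MKN28 to SNU216 peaks ran from 1.75 in 8q24.23, on 14 and 8 peaks of MKN28 and SNU216, to 4.75 in 8q23.2, on 19 and 4 peaks. Among the larger bands it was 1.89 in 8q24.21, with 70 MKN28 and 37 SNU216 peaks, and 2.19 in 8q22.3, with 94 and 43. The SNU216 share of peaks was 34.6% (25.6 to 44.4) in 8q24.21 and 31.4% (23.7 to 39.9) in 8q22.3, beside 22.6% over the whole lists. At the other end, 8q22.1 held 66 MKN28 and 14 SNU216 peaks, a ratio of 4.71. The SNU216 share in 8q22.1 was 17.5% (9.91 to 27.6).

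Scores are the values the authors' peak caller gave, and they can rise with depth. Where partners' scores are set side by side below, they show the place of a site in each list and not the amount of binding. The median score of the distal 8q peaks was 98.0 in MKN28 (quartiles 65.6 and 235) and 80.7 in SNU216 (58.4 and 176), close to the 99.8 and 84.7 of the whole lists of MKN28 and SNU216. Members scoring 100 or more numbered 423 in MKN28 (49.2%) and 133 in SNU216 (44.2%). Over the whole lists, 49.9% of MKN28 peaks and 42.2% of SNU216 peaks reached it. By the median and this cut, peaks of the region scored like peaks elsewhere. In SNU216, however, more members (32.6%) than other peaks (24.8%) fell in the lowest of 4 score classes, as given below.

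The strongest sites were more frequent in the region in MKN28. In MKN28, 43 members scored 1000 or more (5.01%, 3.65 to 6.68), against 2.02% of the whole MKN28 list. In SNU216, 5 members did (1.66%, 0.542 to 3.83), against 0.745% of the whole SNU216 list. From the start of chromosome 8 to the lower limit of the region, 13 MKN28 peaks (1.47%) and 0 SNU216 peaks scored as high. In the MYC window, 6 of 64 MKN28 peaks (9.38%) and 1 of 34 SNU216 peaks (2.94%) did. The 43 MKN28 members were spread over 11 of the 13 bands, with 10 in 8q24.22, 9 in 8q22.3 and 7 in 8q24.21, and none in 8q23.1 or 8q23.3.

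**Figure D2:**
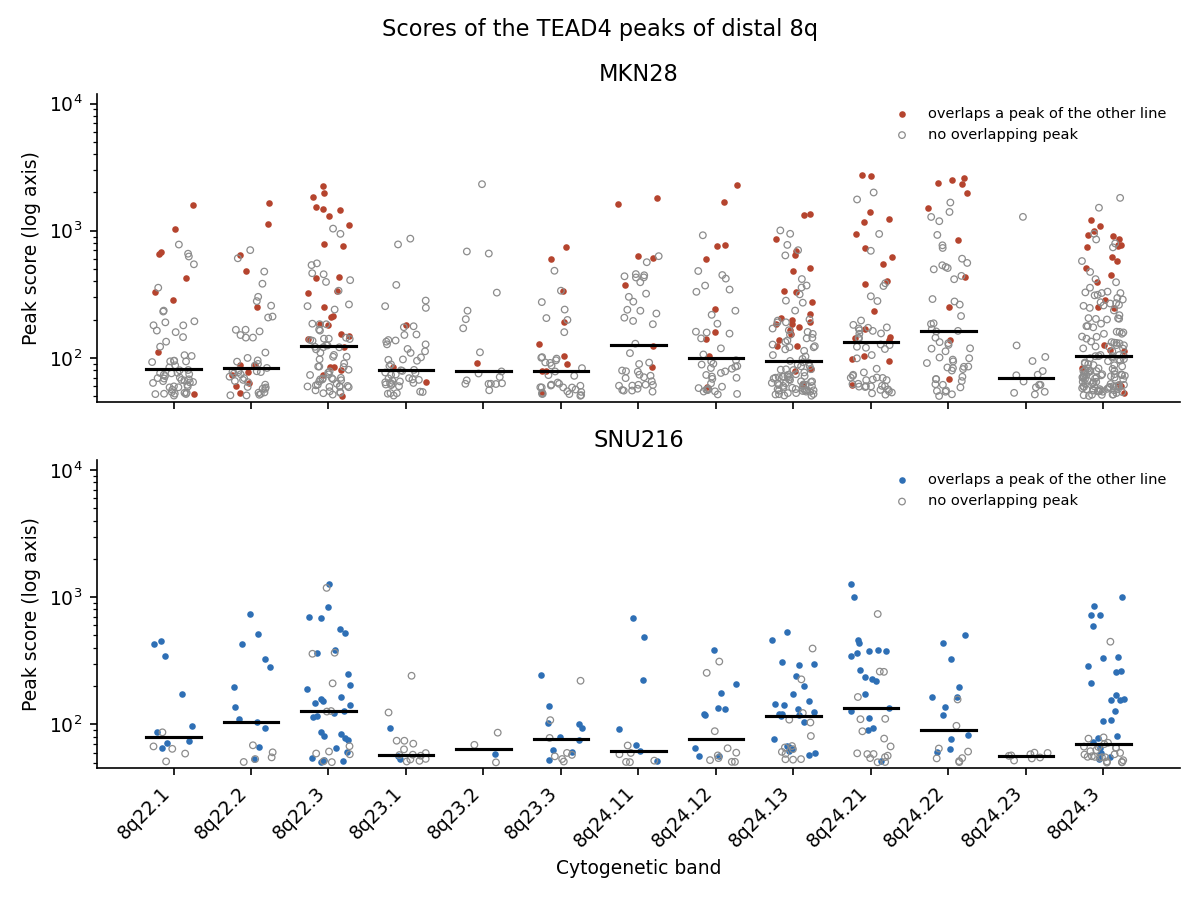
Score of every TEAD4 peak of distal 8q (y axis, log scale) by band (x axis), with MKN28 in the upper panel and SNU216 in the lower one. Filled points overlap a peak of the other line, open points do not, and black bars are medians. In both lines most of the high scores are filled points, and 8q24.23 has open points only.

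In 8q22, most MKN28 sites scoring 1000 or more overlapped an SNU216 peak. The counts were 2 of 2 in 8q22.1, 2 of 2 in 8q22.2 and 8 of 9 in 8q22.3. Outside distal 8q, 511 of 754 MKN28 peaks of such a score overlapped as well. The strongest MKN28 site of 8q22.3, at chr8:101679624-101680198, scored 2245 in MKN28 and its partner scored 247 in SNU216. The strongest SNU216 site of all distal 8q was also in 8q22.3, at chr8:102466966-102467789. It scored 1269 in SNU216, the 34th of that list, and its MKN28 partner of 925 bp scored 754. These sites thus stood in a different place in the order of each line. The window from 102 to 103 Mb held 41 MKN28 and 15 SNU216 peaks, the most of any 1 Mb window of the region in MKN28 and tied for the most in SNU216. Of its 15 SNU216 peaks, 14 overlapped an MKN28 peak, beside 59.3% of the whole SNU216 list.

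Other sites of 8q22 were strong in both lines. At chr8:102449014-102449943 the MKN28 peak scored 1987 and the SNU216 peak scored 691. At chr8:103918418-103919120 the MKN28 peak scored 1542 and the SNU216 peak scored 694. In 8q22.2, the band of STK3, MKN28 scored highest at chr8:99829280-99830268 (1639, with an SNU216 partner at 431). SNU216 scored highest at chr8:99846993-99847772 (741), where the MKN28 partner scored 1131. Both lines had a peak at each site, and the SNU216 peaks lay 17.0 kb apart. In 8q22.1 the strongest peak of both lines was the same site, chr8:95369767-95370323, at 1589 in MKN28 and 451 in SNU216.

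The strongest SNU216 site with no MKN28 peak also lay in 8q22.3, at chr8:104992168-104993344. It scored 1183, the 40th highest of the SNU216 list, and was 1177 bp wide, which is 1.76 times the median width of SNU216 peaks of like score. The nearest MKN28 peak was 91.4 kb away and scored 61.4. Another SNU216 peak at chr8:104821614-104822371 scored 359, with the nearest MKN28 peak 71.3 kb away. The windows from 104 to 106 Mb held 7 and then 6 MKN28 peaks, beside a median of 16.5 per window of the region, and 5 and then 4 SNU216 peaks, beside a median of 5. They were thus sparse in MKN28 only. A site missing from a list lay below the authors' threshold there, which is no measure of absent binding.

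In 8q23 the peaks were fewer. MKN28 had 118 peaks in 8q23, of which 14 overlapped an SNU216 peak (11.9%, 6.64 to 19.1), beside 17.1% of the whole MKN28 list. SNU216 had 39, of which 14 overlapped an MKN28 peak (35.9%, 21.2 to 52.8), beside 59.3% of the whole SNU216 list. The SNU216 peaks of 8q23 also scored lower, with a median of 62.6 against 84.7 over that list. Peaks of low score overlap less often, and the shares were not compared at like score. The strongest MKN28 site without an SNU216 peak lay in 8q23.2, at chr8:110749708-110750537, with a score of 2322, the 56th of the MKN28 list, and a width of 830 bp. The nearest SNU216 peak was 110 kb away and scored 50.2, near the lowest score of the list. In 8q23.3, the band of TRPS1, the strongest peak of both lines was the same site, chr8:116345882-116347117, at 745 in MKN28 and 242 in SNU216.

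In 8q24, MKN28 had its highest scores of the region. The top MKN28 peak, chr8:127591791-127593026 in 8q24.21, scored 2724, and the SNU216 peak inside it scored 172. The next, chr8:130527423-130528492, scored 2713 in MKN28 and 1009 in SNU216, and no other site ranked in the first 10 overlapping members of MKN28 and of SNU216 alike. At chr8:130697426-130698544 the scores were 1410 in MKN28, the 321st of that list, and 1258 in SNU216, the 36th.

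Band 8q24.22 held a group of strong MKN28 sites. The MKN28 peak at chr8:134654196-134655595 scored 2575 and its SNU216 partner scored 163. The peak at chr8:134544836-134545945 scored 2380 in MKN28 and 433 in SNU216. At chr8:134706992-134708949 the MKN28 peak was 1958 bp wide and scored 2325, and the SNU216 partner was 598 bp wide and scored 137. All 3 lay within the window from 134 to 135 Mb, which held 31 MKN28 and 9 SNU216 peaks. Of the 65 MKN28 peaks of 8q24.22, 42 reached a score of 100, beside 49.9% of the whole MKN28 list. The MKN28 median in 8q24.22 was 161, the highest median of any band in MKN28. The SNU216 median there was 89.9.

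A double site stood at the start of 8q24.22. MKN28 had adjoining peaks at chr8:131509715-131511022 and chr8:131511024-131512230, with scores of 1996 and 2514. SNU216 had peaks inside the same stretch, at chr8:131509821-131511005 and chr8:131511259-131511776, with scores of 507 and 325. The higher peak of the pair was thus the second in MKN28 and the first in SNU216. The first SNU216 peak, of 1185 bp, was the widest SNU216 peak of the region. The window from 131 to 132 Mb held 39 MKN28 and 15 SNU216 peaks. Overlap counts there were 11 of 39 in MKN28 and 11 of 15 in SNU216. The shares over the whole lists were 17.1% in MKN28 and 59.3% in SNU216, so the equal counts stand against different list shares.

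**Figure D3:**
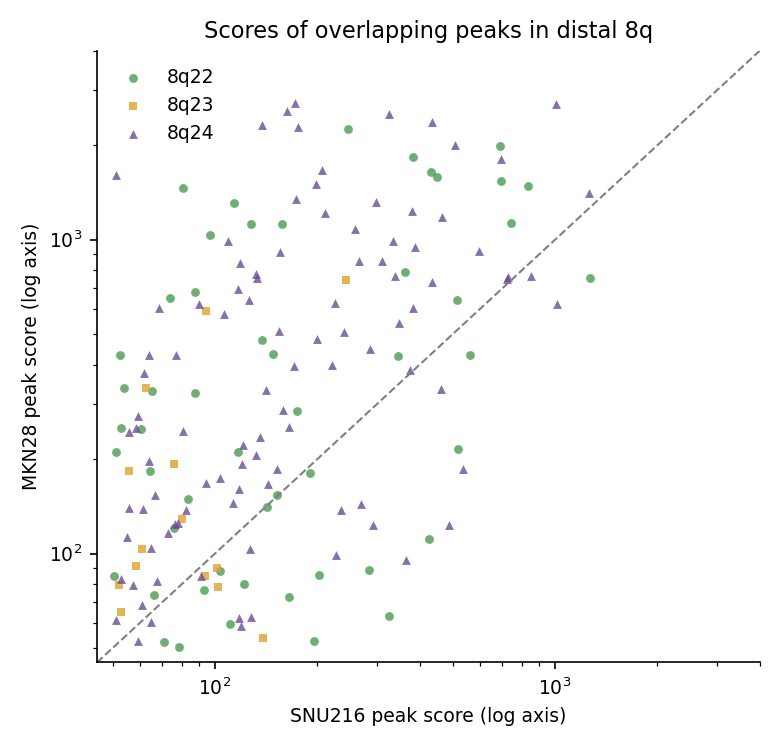
MKN28 score (y axis, log scale) against SNU216 score (x axis, log scale) of the 166 overlapping pairs of peaks in distal 8q, by band group, with a dashed line at equal scores. Most points lie above the line, and 38 pairs lie below it. These are 17 of 52 pairs in 8q22, 4 of 14 in 8q23 and 17 of 100 in 8q24.

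The outermost band, 8q24.3, held the most peaks of any band, 166 in MKN28 and 51 in SNU216. It held 4 of the 10 highest-scoring overlapping SNU216 members. At chr8:145010429-145011224 the SNU216 peak scored 1012, the 76th of its list, and the MKN28 partner scored 625. Its neighbour at chr8:145014157-145015148 scored 751 in MKN28 and 721 in SNU216. The site at chr8:142027498-142028656 scored 768 in MKN28 and 852 in SNU216, and the SNU216 peak was 1159 bp wide against 750 bp for the MKN28 peak. The strongest MKN28 peaks of the band, at chr8:145079105-145079850 (1812) and chr8:144072658-144073804 (1516), had no SNU216 partner, although an SNU216 peak with a score of 211 lay 0.9 kb from the second.

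Band 8q24.23 held 14 MKN28 and 8 SNU216 peaks over 3.5 Mb, and 0 of either overlapped. Exact intervals allow up to 23.2% for MKN28 and 36.9% for SNU216, beside 17.1% and 59.3% over the whole lists of MKN28 and SNU216. In MKN28 the count of 0 is thus within counting error of the list share. The 8 SNU216 peaks scored at most 59.9, so all lay in the lowest of 4 equal score classes of the SNU216 list. In that class 31.5% of SNU216 peaks outside distal 8q overlapped an MKN28 peak. The SNU216 count of 0 is thus within counting error of the share at like score. The MKN28 median was 69.0, and the highest peak, at chr8:137416282-137417087, scored 1285.

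Overlap with the other line was close to the level of the whole lists. Of the MKN28 members, 161 of 859 (18.7%, 16.2 to 21.5) overlapped an SNU216 peak by at least 1 bp, against 17.1% of the whole MKN28 list. Of the SNU216 members, 166 of 301 (55.1%, 49.3 to 60.9) overlapped an MKN28 peak, against 59.3% of the whole SNU216 list. Both intervals contain the value of the whole list. The SNU216 share cannot be set against the MKN28 share, because the lists differ in length.

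Within the region the overlap differed along the arm in SNU216. In 8q22, 52 of 74 SNU216 peaks overlapped an MKN28 peak (70.3%, 58.5 to 80.3). The share was 35.9% (21.2 to 52.8) in 8q23 and 53.2% (45.8 to 60.5) in 8q24. The median SNU216 score differed as well, at 112 in 8q22, 62.6 in 8q23 and 80.7 in 8q24, and these shares were not compared at like score. In MKN28 the shares were 22.6% (17.2 to 28.7) in 8q22, 11.9% (6.64 to 19.1) in 8q23 and 18.7% (15.5 to 22.3) in 8q24.

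Because overlap rises with score, each list was divided into 4 equal classes by its own scores. In the lowest class of the SNU216 list, 22 of 98 members overlapped (22.4%, 14.6 to 32.0), against 31.5% (29.7 to 33.2) of the other SNU216 peaks. In the highest class, 70 of 85 members overlapped (82.4%, 72.6 to 89.8), against 85.3% (84.0 to 86.6). The corresponding MKN28 shares were 6.13% (3.30 to 10.3) of members and 5.14% of other peaks in the lowest class, and 39.5% (33.2 to 46.0) and 37.2% in the highest. In every class of both lists the interval of the members met that of the other peaks. In SNU216, 32.6% of members (27.3 to 38.2) fell in the lowest class, against 24.8% (24 to 25.6) of the other SNU216 peaks, and 28.2% (23.2 to 33.7) fell in the highest.

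**Figure D4:**
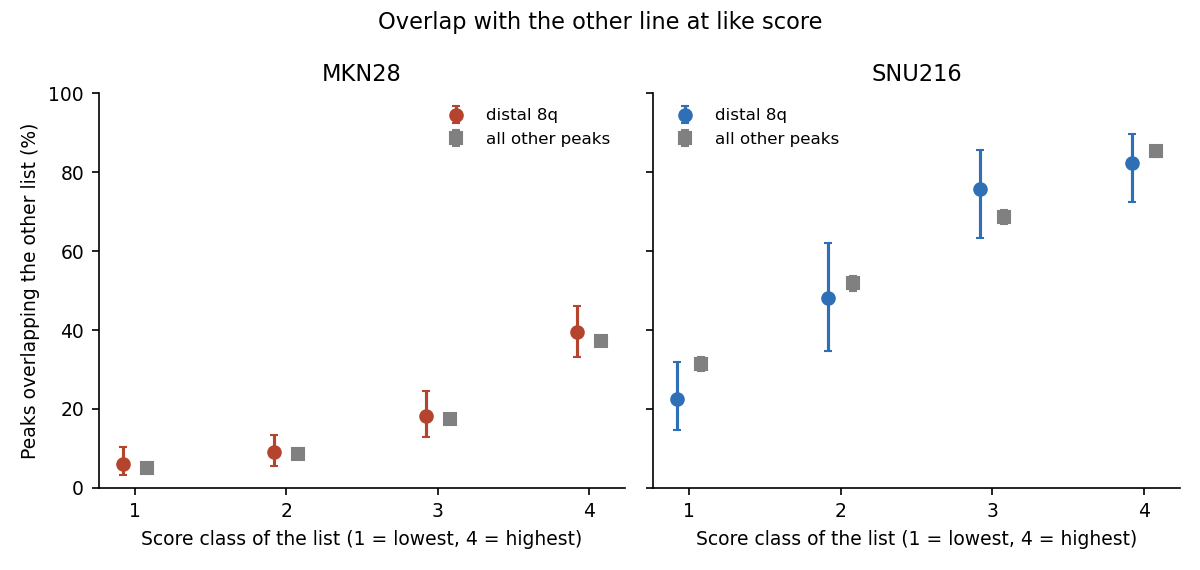
Share of peaks that overlap the other line (y axis, percent) by score class of the list, lowest to highest (x axis), for distal 8q (circles) and all other peaks (grey squares), with MKN28 on the left and SNU216 on the right; bars are exact 95% intervals. In MKN28 the share of members was 6.13% in the lowest and 39.5% in the highest class, and in SNU216 it was 22.4% and 82.4%, with the widest gap to other peaks in the lowest SNU216 class.

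Sites found in both lines were the stronger ones within distal 8q, as among other peaks. The 161 overlapping MKN28 members had a median score of 286, and the 698 others had 85.6. In SNU216 the median scores were 134 for the 166 overlapping members and 59.5 for the 135 others. Of the 43 MKN28 members with a score of at least 1000, 31 overlapped an SNU216 peak, and so did 4 of the 5 SNU216 members in the other direction. Among all other peaks of such a score, 511 of 754 in MKN28 and 79 of 81 in SNU216 overlapped. In 8q22.3, 8 of 9 such MKN28 peaks overlapped, and in 8q24.22, 6 of 10.

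Of the 698 unmatched MKN28 members, 496 (71.1%) lay within 100 kb of an SNU216 peak, against 57.2% of other unmatched MKN28 peaks. Of the 135 unmatched SNU216 members, 117 (86.7%) lay within 100 kb of an MKN28 peak, against 85.7% of other unmatched SNU216 peaks. Unmatched members lay a median of 50.9 kb (MKN28) and 22.1 kb (SNU216) from the other list, against 76.1 and 19.7 kb outside distal 8q for MKN28 and SNU216. Unmatched MKN28 members were thus nearer to the other list than other unmatched MKN28 peaks, and unmatched SNU216 members slightly farther. Such distances also depend on the density of the other list. SNU216 had 6.02 peaks per Mb in the region and 3.69 outside it, and MKN28 had 17.2 and 12.7. The part of density in these distances was not tested.

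The 166 overlapping pairs were centred on nearly the same positions. Their midpoints lay a median of 73.0 bp apart (quartiles 34.1 and 161 bp), and in 120 pairs (72.3%) the SNU216 peak lay wholly inside the MKN28 peak, against 58.2% of the 6710 pairs elsewhere. MKN28 had the wider peak in 145 pairs (87.3%), with a median width ratio of MKN28 to SNU216 of 1.44, against 1.37 elsewhere. In 5 cases 1 MKN28 peak overlapped 2 SNU216 peaks, and 0 SNU216 peaks overlapped 2 MKN28 peaks.

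Scores of the partners rose together loosely, with a Spearman rho of 0.506 over the 166 pairs and 0.373 over the 6710 pairs elsewhere. These are correlations across peaks of 2 libraries, which are not independent replicates. The median ratio of MKN28 to SNU216 score was 1.8 (quartiles 1.06 and 4.35), beside 1.76 elsewhere, and MKN28 had the higher score in 128 pairs (77.1%), beside 75.1% elsewhere. The offset between the lists was thus much the same over the genome, and since depth is unknown it measures no difference in binding. The ratio was 1.78 in 8q22, 1.59 in 8q23 and 2.08 in 8q24. The highest ratio was at chr8:118662024-118663238 in 8q24.11, at 1613 in MKN28 and 51.2 in SNU216. The lowest was at chr8:101514314-101515327 in 8q22.2, at 63.4 in MKN28 and 324 in SNU216, followed by chr8:118681840-118682546 in 8q24.11, at 124 in MKN28 and 487 in SNU216. Both 8q24.11 sites are thus among the extremes, in opposite directions.

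Peaks of distal 8q were wider than other peaks in both lines. The median width was 664 bp in MKN28 (quartiles 525 and 849) and 483 bp in SNU216 (381 and 618), against 523 and 406 bp for all other peaks of MKN28 and SNU216. On the rest of chromosome 8 it was 486 bp in MKN28 and 401 bp in SNU216. In the MYC window it was 810 bp in MKN28 and 606.5 bp in SNU216, wider than in distal 8q. Peaks of 1000 bp or more made up 127 of the MKN28 members (14.8%, 12.5 to 17.3), against 4.05% of the whole MKN28 list, and 7 of the SNU216 members (2.33%, 0.940 to 4.73), against 1.40% of the whole SNU216 list.

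Width rises with score, so peaks of a list were ranked by score and split into 50 groups, and each width was divided by the median of its group to give a relative width. By this measure members were 1.24 times as wide as peaks of like score in MKN28 (95% interval of the median 1.21 to 1.28) and 1.18 times in SNU216 (1.15 to 1.2). On the rest of chromosome 8 the values were 0.943 (0.925 to 0.968) in MKN28 and 1.0 (0.984 to 1.02) in SNU216. In the MYC window that was left out they were 1.39 (1.29 to 1.59) in MKN28 and 1.31 (1.12 to 1.38) in SNU216. Both medians were higher than those of distal 8q, though the SNU216 intervals overlap. A value of at least 1.2 was reached by 469 MKN28 members (54.6%), against 23.0% of the whole MKN28 list, and by 132 SNU216 members (43.9%), against 20.8% of the whole SNU216 list.

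The relative width was alike for sites found in both lines and in 1 line. In MKN28 the median was 1.24 for overlapping members and 1.24 for the others, and in SNU216 it was 1.19 and 1.16 for overlapping and other members. Members were also wider in every score class. In the lowest class of each list the members' median width was 523 bp in MKN28 and 374 bp in SNU216, against 419 and 330 bp for other peaks of MKN28 and SNU216. In the highest class it was 851 bp in MKN28 and 658 bp in SNU216, against 688 and 546 bp for other peaks.

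**Figure D5:**
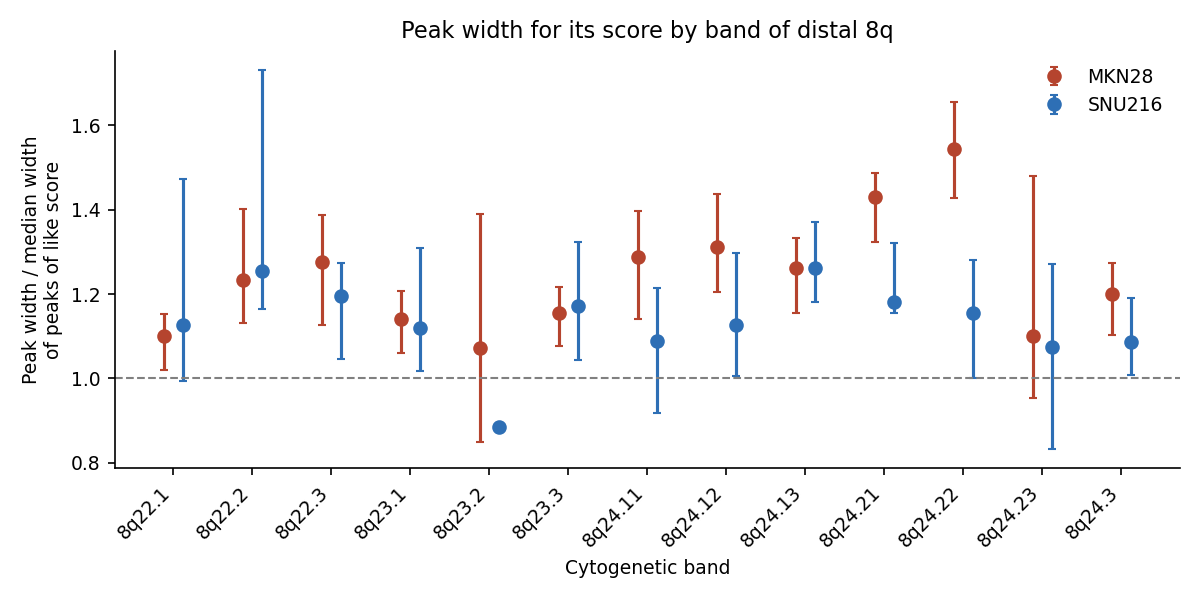
Median width of the distal 8q peaks divided by that of peaks of like score (y axis) by band (x axis), MKN28 left and SNU216 right in each pair, with exact 95% intervals of the median and a dashed line at 1. MKN28 reached 1.54 in 8q24.22, and SNU216 stayed between 0.886, on the 4 peaks of 8q23.2 for which no interval is drawn, and 1.26.

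Along the arm, the bands with the highest median relative width were not the same in MKN28 and SNU216, but the order in SNU216 was uncertain. In MKN28 the relative width was 1.10 in 8q22.1, was highest at 1.43 (1.32 to 1.49) in 8q24.21 and 1.54 (1.43 to 1.65) in 8q24.22, and then 1.2 (1.10 to 1.27) in 8q24.3. SNU216 had its highest values in 8q24.13, at 1.26 (1.18 to 1.37), and in 8q22.2, at 1.25 (1.17 to 1.73) on 17 peaks. It had 1.18 (1.16 to 1.32) in 8q24.21 and 1.15 (1.0 to 1.28) in 8q24.22. These SNU216 intervals overlap one another. In 8q24.13 both medians were 1.26. The median lay above 1 in 13 of 13 bands in MKN28 and in 12 of 13 in SNU216. The whole interval lay above 1 in fewer bands, 11 of 13 in MKN28 and 8 of the 12 with an interval in SNU216. Why the peaks of the region were wide for their score was not tested.

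The limit at 95 Mb did not mark the place where the wide peaks began. In the 5 Mb block just below it, from 90 to 95 Mb, the relative width was 1.14 (1.05 to 1.22) on 56 MKN28 peaks and 1.35 (0.937 to 1.40) on 24 SNU216 peaks. The block from 85 to 90 Mb had 1.11 (1.03 to 1.23) in MKN28 and 1.16 (1.03 to 1.36) in SNU216. From 80 to 85 Mb the values were 0.866 in MKN28 and 1.01 in SNU216. Within the region, the block from 130 to 135 Mb had the highest MKN28 value, 1.5 (1.43 to 1.63), where 79 of 97 peaks reached 1.2.

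The widest single peaks were in 8q22.3 and 8q24.21 in MKN28. A peak of 2335 bp at chr8:102038094-102040428 scored 1118 and overlapped 2 SNU216 peaks. Peaks of 2318 bp at chr8:131008614-131010931 and of 2217 bp at chr8:103819401-103821617 scored 626 and 325 and each overlapped 1 SNU216 peak. The widest for its score was chr8:131552694-131554745 in 8q24.22, which was 2052 bp wide at a score of 113, or 3.89 times as wide as peaks of like score, and had no SNU216 partner. In SNU216 no member exceeded 1185 bp, and the widest for its score, chr8:123143926-123144722, was 797 bp wide at a score of 60.7.

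Clusters of neighbouring peaks held a share of members near that of the whole list in MKN28 and a smaller one in SNU216. Peaks were joined into runs where gaps were at most 10 kb. In MKN28, 127 members (14.8%) lay in 26 runs of at least 4 peaks, against 13.5% of the whole MKN28 list. In SNU216, 4 members (1.33%) lay in 1 such run, against 5.73% of the whole SNU216 list. The largest MKN28 run had 9 peaks over 36.9 kb in 8q22.1 (chr8:96201737-96238594), with scores up to 1036 and 3 SNU216 peaks inside it. The next had 8 peaks over 28.3 kb in 8q24.21 (chr8:131026794-131055058), with scores up to 1761, a relative width of 1.61 and 1 SNU216 peak. A run of 7 peaks in 8q24.3 (chr8:145010682-145049170) held 3 SNU216 peaks, among them the strong pair described above. The 1 SNU216 run, of 4 peaks over 12.8 kb, lay in 8q24.13.

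Long stretches without peaks were partly the same in both lines. The longest in MKN28 was 1.10 Mb in 8q23.3 (chr8:113230543-114327950), and SNU216 had 0 peaks in it. It lay within the longest SNU216 stretch of 2.07 Mb (chr8:112745333-114812626), which held 6 MKN28 peaks. The second SNU216 stretch, 1.94 Mb from 8q22.1 to 8q22.2 (chr8:97145352-99082240), was filled in MKN28 by 27 peaks. Of 48 full 1 Mb windows, none was without an MKN28 peak (lowest 2, median 16.5, highest 41) and 2 were without an SNU216 peak (median 5, highest 15).

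Members just inside the limits and peaks just outside them were as follows. At 95000000, the nearest MKN28 peak inside scored 94.7 and was 613 bp wide, and the nearest outside scored 66.4 and was 661 bp wide. In SNU216 the nearest inside scored 426 (761 bp) and the nearest outside scored 81.3 (571 bp). At the start of the MYC window, the last MKN28 and SNU216 members scored 70.1 and 67.0, and the first peaks left out scored 109 and 52.8 in MKN28 and SNU216. At its end, the first members scored 383 and 55.2, and the last peaks left out scored 72.0 and 120 in MKN28 and SNU216. The last member before the chromosome end scored 55.6 in MKN28, 106 kb from the end, and 66.4 in SNU216, 63.2 kb from the end.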

How the data were processed

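TEAD4 ChIP-seq peak lists of MKN28 and SNU216 were analysed, 1 library per line. Per the submitters' processing notes, CASAVA 1.8, Bowtie2 2.0.0, MACS and hg19 were used; the sources used here do not give settings, duplicate handling or the MACS version. The authors deposited 1 list per line with a score per peak, whose scale is not stated; values start at 50.00 in MKN28 and 50.01 in SNU216. Such a score can rise with depth, which is unknown, so lists were ranked separately.

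Positions were converted to 1-based coordinates. Bands came from the hg19 table bundled with circlize 0.4.16. Overlap meant at least 1 shared bp. Shares carry exact Clopper-Pearson intervals and medians exact order-statistic intervals, at 95%. The code was checked on simulated data. Tools were scipy 1.17.1, pandas 2.3.3, numpy 2.4.6 and matplotlib 3.10.9 under Python 3.11.15. Members, lists and settings were chosen with earlier results of these data known. Named peaks were the 10 highest-scoring overlapping and 10 highest-scoring other members of each list, the highest of each band, the 3 widest, the 3 widest for their score, the 3 largest runs and the densest windows; the pairs with extreme score ratios, the neighbours of named peaks, the longest gaps and the 5 Mb blocks were chosen after their values were seen. Planned comparisons of gene positions and sequence motifs were not run, because no hg19 annotation or genome was used.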

Additional observations from a re-analysis of the deposited data

How the results depend on the processing

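Of 59 values recomputed, 36 stayed within the main interval or, for counts, within 1.5 times. Some of the 36 could not move. Cutting only the MKN28 list to equal length left the SNU216 member number, median score and relative width the same by construction. Most moves follow from how a setting is built. Among peaks scoring 100 or more there were 423 MKN28 and 133 SNU216 members, median scores of 236 and 220 in MKN28 and SNU216, and a 69.2% overlap of SNU216 members. In 8q24 only there were 524 MKN28 and 188 SNU216 members, and MKN28 had a median score of 108 and a relative width of 1.29. With the MKN28 list cut to the length of the SNU216 list there were 273 MKN28 members, 0.907 times the SNU216 number, with a median score of 399, a relative width of 1.19, and overlaps of 37.7% in MKN28 and 35.9% in SNU216. Overlap was 14.2% in MKN28 and 40.5% in SNU216 when 50% of both peaks had to overlap, and 16.1% and 45.8% in MKN28 and SNU216 for midpoints within 200 bp. Runs of at least 4 peaks numbered 54 in MKN28 and 6 in SNU216 at a joining distance of 25 kb, and 9 in MKN28 and 1 in SNU216 at 5 kb. Without 8q24.21 and 8q24.22, chosen after seeing the data, the MKN28 relative width was 1.2, just under its interval. Starting the region at 85 Mb, also chosen later, or adding the MYC window back moved no value out of its interval or past 1.5 times. Leaving out a replicate could not be done with single libraries. No paired analysis was possible because the labels number no replicates. The planned gene and motif comparisons were not run. Unknown depth limits every statement on a peak found in 1 list.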
